A study of Mus musculus with 21 samples.

Results

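Messenger RNA levels of 10 mouse genes of glycolysis and the hypoxia response were followed through zymosan peritonitis: Slc2a1, Hk1, Hk2, Pfkfb3, Pgk1, Ldha, Hif1a, Egln3, Bnip3 and Vegfa. The genes were listed by symbol, and each was read from array probe sets annotated to that symbol alone. They are 10 of 18193 genes with such a probe set, and all 10 passed the filter on low signal that left 12168 genes for testing. The filter required a signal above 80.6, the median of the whole table, on at least 3 arrays.

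Monocytes and macrophages were sorted from female C57BL/6 mice of 7 to 8 weeks and hybridised to Affymetrix arrays, 3 arrays for each of 7 groups. Peritoneal cells of mice given zymosan, a yeast cell wall particle, by the intraperitoneal route were taken at 4 times. The groups were Ly-6B+ Ly-6G- monocytes at 4 h, cells between monocyte and macrophage that were Ly-6B+ or Ly-6B low and Ly-6G- at 18 h, F4/80+ CD11b+ macrophages at 72 h, and 2 macrophage groups at 168 h. Those at 168 h were F4/80 medium to high and Ly-6B+, or F4/80 high and Ly-6B-. Naive mice gave the other 2 groups, resident peritoneal macrophages that were F4/80 high and CD11b high, and Ly-6B+ Ly-6G- monocytes flushed from bone marrow and passed through red cell lysis. All mice were of 1 sex and strain, the labels name no genetic change, and whether an array held 1 mouse or a pool is not stated there. The 4 h and bone marrow monocytes differ in tissue, zymosan and handling, which cannot be told apart, and the 18 h gate also admits Ly-6B low cells.

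Glucose enters the cell through transporters such as GLUT1, is phosphorylated by hexokinases, passes the phosphofructokinase step that PFKFB3 promotes, and leaves the pathway as lactate through lactate dehydrogenase. When oxygen is short, or in macrophages exposed to microbial products, the factor HIF-1 drives many of these genes, and prolyl hydroxylases mark its alpha subunit for destruction when oxygen is present. Myeloid cells are known to depend heavily on glycolysis in inflamed tissue. HIF-1 is regulated largely through protein stability, which these arrays do not read.

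HIF binds DNA at a short core, ACGTG or GCGTG, so the windows around the transcription starts of the genes that varied most between groups are shown, Vegfa aside, with these letters in capitals wherever they stand on either strand (CACGT and CACGC are the same cores read from the other strand). Each window runs from 250 bases before to 50 bases after a start in the RefSeq annotation of GRCm38.p6, and is written 5′ to 3′ on the gene's strand. For Pfkfb3 and Ldha, which have 2 windows each, the first is given.
Slc2a1, chr4:119108495-119108794, plus strand: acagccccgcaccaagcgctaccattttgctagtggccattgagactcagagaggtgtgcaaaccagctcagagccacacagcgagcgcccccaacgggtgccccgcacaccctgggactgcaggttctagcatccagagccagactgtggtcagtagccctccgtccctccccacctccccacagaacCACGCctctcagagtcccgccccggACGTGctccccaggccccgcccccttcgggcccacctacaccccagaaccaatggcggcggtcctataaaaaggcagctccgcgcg
Pfkfb3, chr2:11553880-11554179, minus strand: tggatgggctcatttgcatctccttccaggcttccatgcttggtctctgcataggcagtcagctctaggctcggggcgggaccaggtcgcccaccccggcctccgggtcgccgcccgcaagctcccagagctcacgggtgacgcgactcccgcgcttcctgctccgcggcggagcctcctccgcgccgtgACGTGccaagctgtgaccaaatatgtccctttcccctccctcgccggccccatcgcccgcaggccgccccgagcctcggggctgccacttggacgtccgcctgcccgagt
Hif1a, chr12:73907617-73907916, plus strand: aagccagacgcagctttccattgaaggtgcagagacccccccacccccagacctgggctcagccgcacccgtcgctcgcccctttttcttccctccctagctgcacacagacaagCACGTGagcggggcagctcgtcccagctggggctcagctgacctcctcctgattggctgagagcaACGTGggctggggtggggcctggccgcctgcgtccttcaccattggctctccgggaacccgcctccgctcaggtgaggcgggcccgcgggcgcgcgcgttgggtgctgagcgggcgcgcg
Ldha, chr7:46845554-46845853, plus strand: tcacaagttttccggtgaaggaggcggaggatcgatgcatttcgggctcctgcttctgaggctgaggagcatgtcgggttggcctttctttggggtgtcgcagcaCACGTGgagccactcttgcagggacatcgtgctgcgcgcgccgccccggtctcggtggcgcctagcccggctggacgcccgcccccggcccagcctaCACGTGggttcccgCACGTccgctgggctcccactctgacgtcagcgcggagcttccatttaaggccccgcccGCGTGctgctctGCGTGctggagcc
Pgk1, chrX:106186850-106187149, plus strand: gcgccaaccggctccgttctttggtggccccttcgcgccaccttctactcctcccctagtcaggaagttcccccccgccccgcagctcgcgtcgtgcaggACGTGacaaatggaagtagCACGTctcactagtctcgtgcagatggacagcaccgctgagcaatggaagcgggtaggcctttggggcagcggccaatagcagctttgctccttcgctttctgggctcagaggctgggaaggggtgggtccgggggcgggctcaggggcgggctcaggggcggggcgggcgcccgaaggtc
Bnip3, chr7:138909457-138909756, minus strand: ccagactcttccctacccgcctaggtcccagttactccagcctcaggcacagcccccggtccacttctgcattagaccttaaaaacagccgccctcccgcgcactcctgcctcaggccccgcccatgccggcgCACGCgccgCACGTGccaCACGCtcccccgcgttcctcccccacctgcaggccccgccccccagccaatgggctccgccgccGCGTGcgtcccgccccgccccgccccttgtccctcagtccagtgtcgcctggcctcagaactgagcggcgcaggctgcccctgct
Egln3, chr12:54203825-54204124, minus strand: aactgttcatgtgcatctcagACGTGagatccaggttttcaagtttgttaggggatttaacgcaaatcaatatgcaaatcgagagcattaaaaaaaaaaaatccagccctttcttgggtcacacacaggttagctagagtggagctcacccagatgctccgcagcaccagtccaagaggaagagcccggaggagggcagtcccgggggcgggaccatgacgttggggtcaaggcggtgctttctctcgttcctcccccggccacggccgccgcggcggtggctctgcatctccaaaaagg
The 10 genes had 14 windows in all, and 11 of them (78.6%) held ACGTG on either strand, against 19.6% of all 32851 windows in the table. Promoters rich in the dinucleotide CG hold the core more often: it was in 28.0% of the 14281 windows with at least 10 CG, and 13 of the 14 windows had that many. GCGTG, with or without ACGTG, was in 7 of the 14 windows and in 32.4% of all windows. The palindrome CACGTG, which holds ACGTG on both strands and was in 7.15% of all windows, stood in the windows of Ldha, Hif1a and Bnip3 and in the second window of Pfkfb3. The first windows of Hk1 and Vegfa held neither core. No share among windows rich in CG was taken for GCGTG. The 10 genes were listed for glycolysis and the hypoxia response, so their share of windows with a core is not independent of that choice. A match of letters is a description, and binding was not measured.

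Slc2a1 encodes GLUT1, the transporter that brings glucose into many cell types. Its signal was 8227, 7086 and 8924 on the arrays of 4 h monocytes, against 834, 1183 and 1045 in bone marrow monocytes and 346, 352 and 392 in naive resident macrophages. It was 2378, 2245 and 3023 in 18 h cells and 1092, 883 and 675 in 72 h macrophages. At 168 h it was 731, 843 and 886 in Ly-6B+ macrophages, against 434, 615 and 541 in Ly-6B- macrophages. Every 4 h array was above every other array, and the 18 h arrays were above all arrays of the remaining groups. Slc2a1 rose 7.86-fold in 4 h over bone marrow monocytes (log2 change 2.97, SE 0.18, adjusted p = 3.08e-11), a change larger than in 99.0% of the genes tested, and was 21.3-fold higher than in resident macrophages (4.42, SE 0.18, adjusted p = 5.32e-14). It fell by 1.66 on the log2 scale in 18 h over 4 h cells (adjusted p = 2.48e-07) and fell by 1.53 in 72 h over 18 h cells (adjusted p = 1.14e-06). In 72 h macrophages it was still 2.34-fold higher than in resident macrophages (log2 change 1.22, adjusted p = 0.000365). The other 2 probe sets of Slc2a1 gave the same call in every comparison. In bulk RNA, fewer cells of a type and less RNA per cell cannot be told apart, here or in the results that follow.

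Hk1 and Hk2 encode hexokinases, which trap glucose in the cell as glucose 6-phosphate. Hk1 was 1822, 2007 and 1441 in 4 h monocytes, against 2076, 1952 and 1425 in bone marrow monocytes and 4349.7, 3763 and 1833 in resident macrophages. It was 3267, 2519 and 1446 in 18 h cells and 3852, 3243 and 2127 in 72 h macrophages. The 168 h arrays gave 3276, 2170.4 and 3184 in Ly-6B+ macrophages, against 4506, 4115 and 3780.1 in Ly-6B- macrophages. Ordered by mean, every neighbouring pair of groups overlapped, and the array numbered 3 was the lowest of its group in 6 of 7 groups. Hk1 passed no comparison. Its difference of 4 h from resident cells had a log2 change of -0.83 (SE 0.30, adjusted p = 0.0230), and without the third resident array this became -1.21 (adjusted p = 0.00132), past the fold threshold; the difference of resident macrophages from bone marrow monocytes was 0.79 with all arrays and 1.17 (adjusted p = 0.00236) without that array.

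Hk2 ran the other way, with the bone marrow highest. Its signal was 3418, 2940.4 and 2472 in 4 h monocytes and 1855, 2736 and 2335 in resident macrophages, against 4264, 6121 and 4372 in bone marrow monocytes. All other groups lay between 2093 and 3199.6. The bone marrow arrays overlapped no other group, and the other 6 groups overlapped their neighbours in the order of means. Hk2 was lower in resident macrophages than in bone marrow monocytes by 2.12-fold (log2 change -1.08, SE 0.19, adjusted p = 6.65e-05). In 4 h over bone marrow monocytes the log2 change was -0.73 (adjusted p = 0.00290), short of the fold threshold of 1. The resident call was lost when the first resident array (-0.94) or the second bone marrow array (-0.92) was left out.

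Pfkfb3 makes fructose 2,6-bisphosphate, the activator of phosphofructokinase. It measured 1641, 1659 and 1692 in 4 h monocytes, against 368, 371 and 626 in bone marrow monocytes and 459.6, 434 and 518 in resident macrophages. It was 609, 781 and 547 in 18 h cells and 437, 420.0 and 543 in 72 h macrophages. At 168 h the Ly-6B+ macrophages gave 922, 894 and 825, against 721, 495 and 443 in Ly-6B- macrophages. The 4 h arrays stood above all others, and the 168 h Ly-6B+ arrays came next with no overlap on either side. Pfkfb3 rose 3.68-fold in 4 h over bone marrow monocytes (log2 change 1.88, SE 0.20, adjusted p = 9.03e-08) and fell by 1.36 on the log2 scale in 18 h over 4 h cells (adjusted p = 1.14e-05). Its Ly-6B+ over Ly-6B- difference was 1.61-fold (0.68, SE 0.20, adjusted p = 0.0329), under the fold threshold. The second Pfkfb3 probe set was dim, between 35.1 and 161, and passed no comparison; with the mean of both probe sets the log2 change was 0.86 in 4 h over bone marrow monocytes, -0.93 in 18 h over 4 h cells and 0.99 in 4 h over resident cells, all short of the fold threshold.

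Pgk1 and Ldha act late in the pathway, Pgk1 at the first step that yields ATP and Ldha in turning pyruvate into lactate. Pgk1 gave 21096, 18108 and 24387 in 4 h monocytes, against 18919, 17839.6 and 19327 in bone marrow monocytes and 8239, 8297 and 7827 in resident macrophages. It was 23422, 24202 and 29893 in 18 h cells and 13715, 10754 and 11714 in 72 h macrophages. Late in the response, at 168 h, it was 9489, 8171 and 8988 in Ly-6B+ macrophages, against 9746, 9517 and 8257 in Ly-6B- macrophages. The 2 monocyte groups and the 18 h group lay above all macrophage groups, with the 72 h arrays between them and the 168 h and resident arrays. Pgk1 fell by 1.10 on the log2 scale in 72 h over 18 h cells (SE 0.12, adjusted p = 5.23e-07) and was 2.30-fold lower in resident macrophages than in bone marrow monocytes (-1.20, SE 0.12, adjusted p = 4.61e-08). The 72 h call was lost without the third 18 h array (-0.99). Of its other 2 probe sets, the dimmer moved further, by -2.44 in 72 h over 18 h cells. That probe set and the one used carry the array maker's suffix x, which marks probes that may also bind other transcripts.

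Ldha separated the bone marrow from everything else. Its signal was 16167, 18274 and 18004 in 4 h monocytes and 16601, 19618 and 16491 in resident macrophages, against 7335, 8230.5 and 8943 in bone marrow monocytes. The 18 h arrays gave 20609, 19687 and 20601, and the 72 h and 168 h groups lay between 14678 and 19258. The bone marrow arrays were below all others, the 18 h arrays above all others, and the 5 groups between them overlapped their neighbours in the order of means. Ldha rose 2.14-fold in 4 h over bone marrow monocytes (log2 change 1.10, SE 0.11, adjusted p = 3.09e-08) and was 2.15-fold higher in resident macrophages than in bone marrow monocytes (1.10, SE 0.11, adjusted p = 2.80e-08). Between 4 h and resident cells the log2 difference was 0.00 (95% interval -0.23 to 0.22). The resident call over bone marrow fell short with all arrays set to a common median (0.97).

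**Figure D1:**
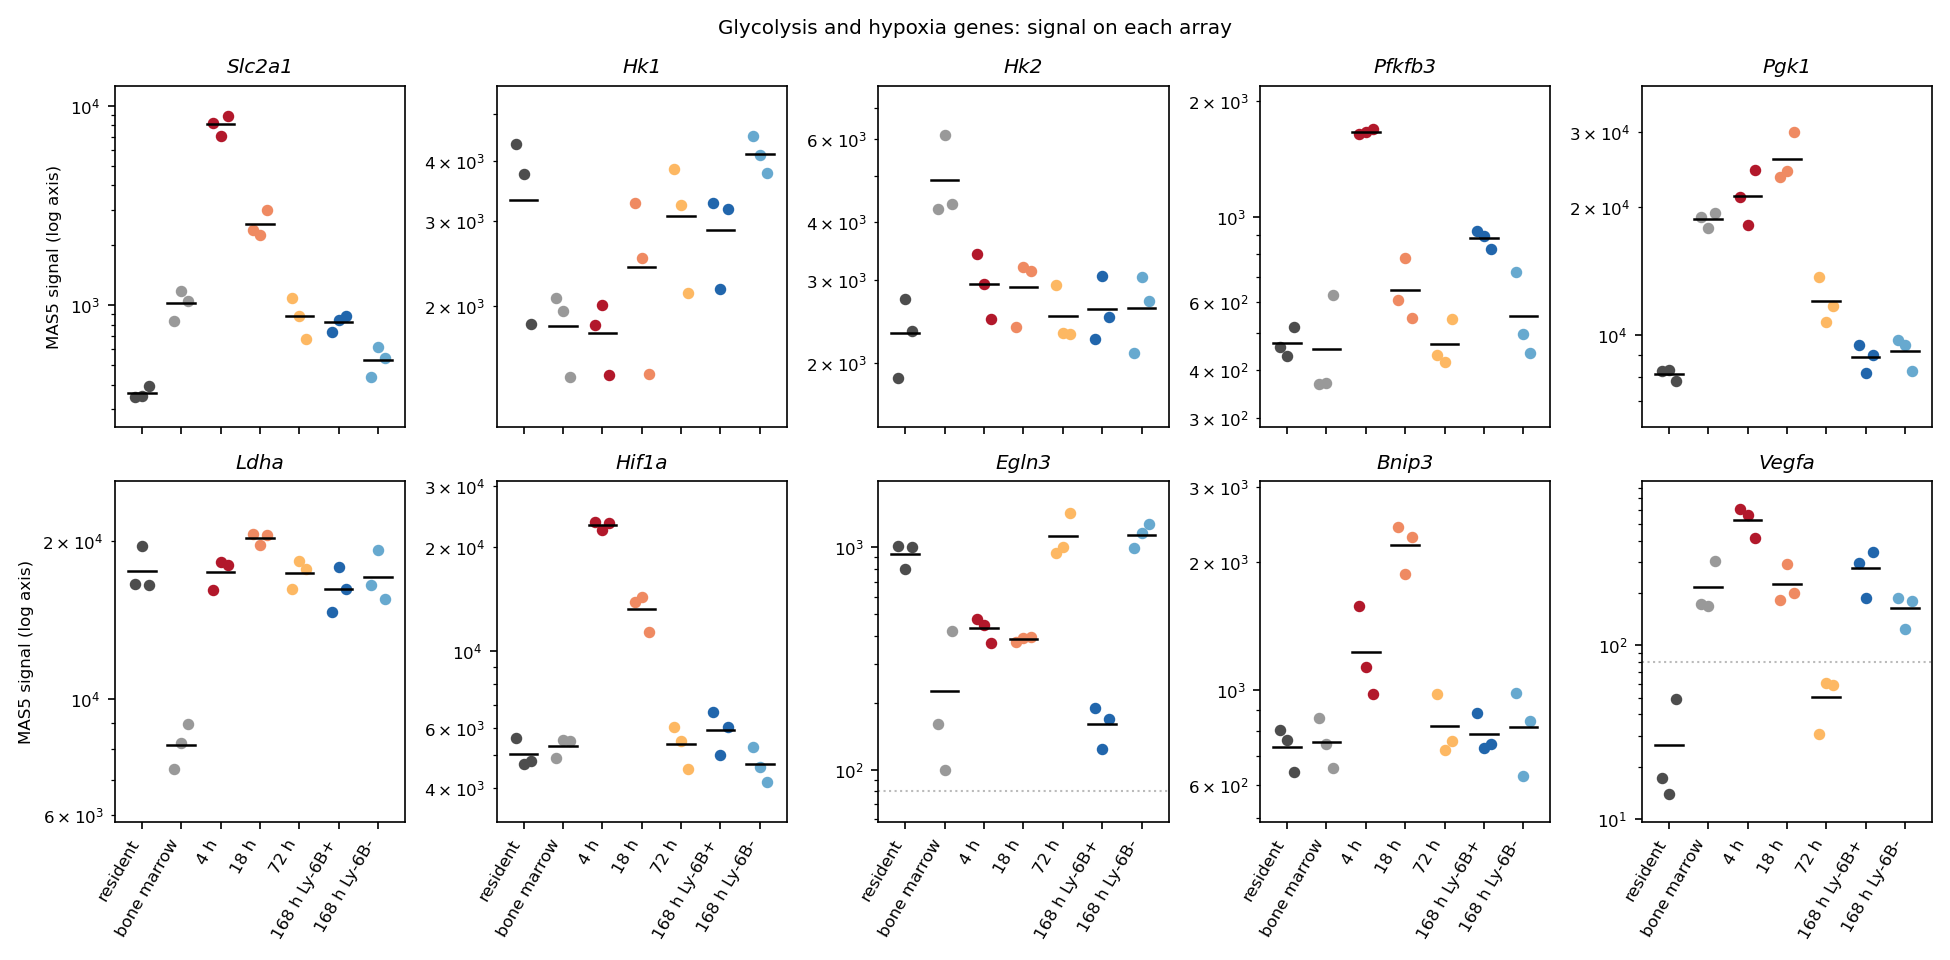
MAS5 signal of the 10 genes on a log axis, 1 panel a gene; each point is 1 array, black lines are means of 3 arrays, and the dotted line in the Egln3 and Vegfa panels is the table median of 80.6. Slc2a1, Pfkfb3 and Hif1a peak at 4 h and Bnip3 at 18 h. Pgk1 has its highest mean at 18 h, with arrays that overlap those of 4 h. Ldha is lowest in bone marrow monocytes, and Egln3 is low in 168 h Ly-6B+ but not in 168 h Ly-6B- macrophages.

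Hif1a encodes the oxygen-controlled subunit of HIF-1. Its transcript gave 23700.3, 22396 and 23463 in 4 h monocytes, against 4895, 5539.5 and 5503 in bone marrow monocytes and 5583, 4694 and 4807 in resident macrophages. It was 13879, 14379 and 11328 in 18 h cells and 6044, 5497 and 4559 in 72 h macrophages. The 168 h values were 6679, 5001 and 6031 in Ly-6B+ macrophages, against 5282, 4621 and 4175 in Ly-6B- macrophages. The 4 h and the 18 h arrays each stood apart, in that order, and the other 5 groups overlapped their neighbours in the order of means. Hif1a rose 4.36-fold in 4 h over bone marrow monocytes (log2 change 2.12, SE 0.13, adjusted p = 5.35e-11) and was 4.61-fold higher than in resident macrophages (2.21, SE 0.13, adjusted p = 1.19e-11). It fell by 1.30 on the log2 scale in 72 h over 18 h cells (adjusted p = 1.73e-07). In 18 h over 4 h cells the change was -0.82 (SE 0.13, adjusted p = 3.56e-05), under the fold threshold.

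The fold of Hif1a depended on the probe set. Of the other 3, the 2 brighter gave larger log2 changes in 4 h over bone marrow monocytes, 3.12 and 3.34, and both were called lower in 18 h over 4 h cells, by -1.40 and -2.04. The last ran from 5.25 to 156 and passed no comparison. The mean of all 4 gave -1.17 in 18 h over 4 h cells, past the threshold.

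Egln3 encodes PHD3, one of the prolyl hydroxylases that act on HIF alpha subunits, and is itself a HIF target. It was 475, 449.7 and 370.4 in 4 h monocytes, against 160.2, 100.2 and 419 in bone marrow monocytes and 1009, 795 and 1004 in resident macrophages. It was 374, 391 and 397 in 18 h cells and 942, 1005 and 1427 in 72 h macrophages. At 168 h it measured 189.6, 124 and 169 in Ly-6B+ macrophages, against 992, 1160.1 and 1269.6 in Ly-6B- macrophages. The arrays fell into a high set of resident, 72 h and 168 h Ly-6B- cells, and a low set of all other groups, with no overlap between the sets. Egln3 rose by 1.48 on the log2 scale in 72 h over 18 h cells (SE 0.31, adjusted p = 0.000813). It was 6.63-fold lower in 168 h Ly-6B+ than in Ly-6B- macrophages (log2 change -2.73, SE 0.31, 95% interval -3.37 to -2.09, adjusted p = 3.60e-06), and only 0.329% of tested genes had a lower log2 change. It was also higher in resident macrophages than in bone marrow monocytes, by 2.20 (adjusted p = 4.89e-06), and lower in 4 h monocytes than in resident macrophages, by -1.09 (adjusted p = 0.00458).

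Egln3 was called higher in 4 h over bone marrow monocytes, but these arrays overlapped. The log2 change was 1.11 (SE 0.31, adjusted p = 0.00499), and the third bone marrow array lay at 419, within the 4 h range. Without that array the change was 1.65 (adjusted p = 3.41e-06), and without the second bone marrow array it was 0.69 (adjusted p = 0.05002). The third bone marrow array also had the highest summed signal of 10 measured neutrophil genes, 204232 against 92736 and 62846 on the other 2; the part of this in the Egln3 value was not tested. The second, dimmer probe set gave 0.27 in this comparison (adjusted p = 0.565), and -1.44 (adjusted p = 0.00949) in Ly-6B+ over Ly-6B- macrophages.

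Bnip3, a mitochondrial protein that promotes mitophagy and a HIF target, peaked at 18 h. It was 1575, 1131 and 981 in 4 h monocytes, against 859.8, 747 and 656 in bone marrow monocytes and 805, 762 and 642 in resident macrophages. It was 2412, 1879.7 and 2287 in 18 h cells and 982, 723 and 761 in 72 h macrophages. The 168 h signals were 884, 730.2 and 748 in Ly-6B+ macrophages, against 984, 628 and 844 in Ly-6B- macrophages. All 18 h arrays were above all arrays of the other groups, which otherwise overlapped their neighbours in the order of means. Bnip3 fell by 1.40 on the log2 scale in 72 h over 18 h cells (SE 0.19, adjusted p = 6.44e-06). Its change in 18 h over 4 h cells was 0.85 (SE 0.19, adjusted p = 0.000973), under the fold threshold, and went to 1.04 without the first 4 h array.

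Vegfa encodes the angiogenic growth factor VEGF-A, a classical HIF target. Its signal was 606, 565 and 417 in 4 h monocytes, against 173, 169 and 306 in bone marrow monocytes and 17.1, 13.9 and 49.1 in resident macrophages. It was 181, 295 and 199 in 18 h cells and 30.7, 61.0 and 59.0 in 72 h macrophages. By 168 h it was 298, 187 and 346 in Ly-6B+ macrophages, against 188, 124 and 179 in Ly-6B- macrophages. All 72 h and resident arrays were below the table median, and every other array was above it. Vegfa rose 2.41-fold in 4 h over bone marrow monocytes (log2 change 1.27, SE 0.32, adjusted p = 0.00253) and was 13.8-fold higher than in resident macrophages (3.78, SE 0.32, adjusted p = 2.99e-09). It fell by 1.19 on the log2 scale in 18 h over 4 h cells (adjusted p = 0.00513) and fell by 1.89 in 72 h over 18 h cells (adjusted p = 0.000116). The 15 added before the logarithm reduces folds against the dim 72 h and resident groups. A second Vegfa probe set did not pass the filter on low signal.

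At 4 h, 6 of the 10 genes were called higher than in bone marrow monocytes and 0 lower by limma (1 at an unadjusted p under 0.05): Slc2a1, Pfkfb3, Ldha, Hif1a, Egln3 and Vegfa. A call needed a Benjamini-Hochberg adjusted p under 0.05 and a log2 change of at least 1 in size, and on that rule 22.0% of all tested genes were called, 7.50% higher and 14.5% lower. Hk2, lower (log2 change -0.73, adjusted p = 0.00290), and Bnip3, higher (0.67, adjusted p = 0.00502), missed only the fold threshold. The median log2 change was 1.10 over the 10 genes and -0.14 over all genes tested. Markers of other cells differed between the same groups. The neutrophil list had 6 of 10 measured genes above the table median on every 4 h array and 9 of 10 on every bone marrow array, with summed signals of 9871 to 10432 in 4 h monocytes and 62846 to 204232 in bone marrow monocytes. Progenitor genes (2 and 7 of 7) summed to 1252 to 1554 in 4 h and 33606 to 88442 in bone marrow monocytes, and proliferation genes (2 and 9 of 9) to 895 to 1168 and 70890 to 89049. The brightest of each list were S100a8 and Csf3r, Mpo and Prtn3, and Mki67 and Mcm5. S100a8 was 2444 to 3384 in 4 h monocytes and 21870.1 to 43246 in bone marrow monocytes, whereas Csf3r was 3973 to 4933 and 3265 to 4702. Prtn3 was 760 to 970 in 4 h monocytes, the larger part of their progenitor sum, and 10133 to 21054 in bone marrow monocytes. No marker was at 0 in these lists, and their part in the calls was not tested.

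In 18 h over 4 h cells, 0 of the 10 genes were called higher by limma and 3 lower, Slc2a1, Pfkfb3 and Vegfa. Of all tested genes 15.5% were called, 10.9% higher and 4.56% lower. At an unadjusted p under 0.05, 2 of the 10 were higher, Pgk1 and Bnip3. Of all 12168 genes, 5710 had such a p in either direction. Bnip3, higher, and Hif1a, lower, missed only the fold threshold. The median log2 change was -0.08 over the 10 genes and 0.14 over all genes. Hexokinases, Pgk1, Ldha and Egln3 had changes between -0.14 and 0.39 with adjusted p of at least 0.0610. Marker lists differed between these groups. The neutrophil list, with 6 of 10 genes above the table median on every array of both, summed to 2831 to 4306 in 18 h and 9871 to 10432 in 4 h cells, and the monocyte list (4 of 4 in both) to 64098 to 64847 in 18 h and 95759 to 96365 in 4 h cells. Resident markers (10 and 8 of 10) summed to 41196 to 42167 in 18 h and 29830 to 37389 in 4 h cells. Fn1 made up most of both sums, at 26754 to 30879 in 18 h and 25910 to 27323 in 4 h cells. Prg4 was 3180 to 4040 in 18 h and 778 to 2792 in 4 h cells. The B cell list (3 and 2 of 6), of which Ms4a1 and Cd79b are the brightest, summed to 2046 to 3362 in 18 h and 1091 to 1601 in 4 h cells, and proliferation genes (5 and 2 of 9) to 2438 to 3247 in 18 h and 895 to 1168 in 4 h cells. Their part in the calls was not tested.

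In 72 h over 18 h cells, 1 gene was called higher, Egln3, and 5 lower, Slc2a1, Pgk1, Hif1a, Bnip3 and Vegfa, against 12.5% of all tested genes, 9.04% higher and 3.46% lower. The median log2 change was -0.77 over the 10 genes and 0.03 over all genes. The gate changed between these times as well. The list of resident peritoneal macrophage markers, with 10 of 10 above the table median on every array of both groups, summed to 154768 to 196567 in 72 h macrophages and 41196 to 42167 in 18 h cells. Fn1 and Prg4 are the brightest of these markers. Fn1 lay between 24566 and 34356 on all 21 arrays, while Prg4 was 28116 to 31612 in 72 h macrophages and 3180 to 4040 in 18 h cells. The monocyte list (4 of 4 in both) summed to 10122 to 19089 in 72 h and 64098 to 64847 in 18 h cells, and proliferation genes (9 and 5 of 9) to 11369 to 47275 in 72 h and 2438 to 3247 in 18 h cells. Their part in the calls was not tested.

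At 168 h, 1 of the 10 genes was called between Ly-6B+ and Ly-6B- macrophages, Egln3, lower, against 3.94% of all tested genes, 1.54% higher and 2.41% lower. The median log2 change was -0.02 over the 10 genes and -0.02 over all genes. Resident markers, again 10 of 10 in each group, summed to 109321 to 130048 in Ly-6B+ and 198757 to 230809 in Ly-6B- macrophages, and the 4 measured monocyte genes, of which Chil3 and F13a1 are the brightest, to 35261 to 43472 and 2429 to 5505. Their part in the Egln3 difference was not tested. Slc2a1 was 1.54-fold higher in Ly-6B+ macrophages (log2 change 0.62, adjusted p = 0.0304), under the fold threshold, with no overlap of arrays on the probe set used. On its other 2 probe sets the difference was 0.39 (adjusted p = 0.223) and 0.20 (adjusted p = 0.621), and the arrays overlapped.

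The 168 h Ly-6B- macrophages were set against naive resident macrophages, which were also F4/80 high. Vegfa was the 1 gene of the 10 called, higher by 4.51-fold (log2 change 2.17, SE 0.32, adjusted p = 0.00486), while 0.0411% of all tested genes, 5 of 12168, were called, all higher. The other 4, chosen after their values were seen, were Flrt3 (2.43, adjusted p = 0.0122), Basp1 (1.60, adjusted p = 0.00486), Mmp14 (1.45, adjusted p = 0.00264) and Noct (1.28, adjusted p = 0.00604), and 433 genes had an unadjusted p under 0.05. Flrt3 was at 93.7, 157 and 76.9 in Ly-6B- and 2.22, 15.5 and 5.95 in resident macrophages. All its resident arrays were below the table median, so the size of its log2 change depends on the 15 added. The 3 Vegfa arrays of each group did not overlap. The call was lost without the second resident array (1.96, adjusted p = 0.0509) and with the 6 arrays fitted alone (2.17, adjusted p = 0.224), and the mean of both Vegfa probe sets gave 0.70 (adjusted p = 0.999). The remaining 9 genes had adjusted p of 1.00 after rounding, with log2 changes from -0.10 to 0.52. The median was 0.19 over the 10 genes and -0.01 over all genes.

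Resident macrophages and bone marrow monocytes, the 2 naive groups, differed in 6 of the 10 genes. Ldha and Egln3 were called higher in resident macrophages, and Slc2a1, Hk2, Pgk1 and Vegfa lower, against 23.1% of all tested genes, 12.9% higher and 10.2% lower. Vegfa was 5.72-fold lower in resident macrophages (log2 change -2.52, SE 0.32, adjusted p = 1.61e-06) and Slc2a1 2.72-fold lower (-1.44, SE 0.18, adjusted p = 8.54e-07). Hif1a (-0.08) and Pfkfb3 (0.09) had 95% intervals of -0.35 to 0.19 and -0.32 to 0.49. The median was -0.06 over the 10 genes and 0.05 over all genes. Neutrophil genes (5 and 9 of 10) summed to 6807 to 6926 in resident macrophages and 62846 to 204232 in bone marrow monocytes. Csf3r made up most of the resident sum, at 5706 to 5831, and was 3265 to 4702 in bone marrow monocytes. Progenitor genes (1 and 7 of 7) summed to 6196 to 9350 in resident and 33606 to 88442 in bone marrow cells. Prtn3 made up most of the resident progenitor sum, at 5924 to 8998, and was 10133 to 21054 in bone marrow cells. Mpo was 37.8 to 75.9 in resident and 12013 to 33879 in bone marrow cells. Proliferation genes (9 of 9 in both) summed to 3820 to 12458 in resident and 70890 to 89049 in bone marrow cells. Resident markers (10 and 3 of 10) summed to 216885 to 235741 in resident and 26060 to 28386 in bone marrow cells. Fn1 made up most of the bone marrow sum, at 24566 to 25983, while Prg4 was 43.3 to 68.5 there and 33460 to 38532 in resident cells. The part of these lists in the calls was not tested.

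Against resident macrophages, 4 h monocytes had 5 genes called higher, Slc2a1, Pfkfb3, Pgk1, Hif1a and Vegfa, and Egln3 lower, with 30.9% of all tested genes called, 9.23% higher and 21.7% lower. The median was 1.04 over the 10 genes and -0.22 over all genes. Resident markers (8 and 10 of 10) summed to 29830 to 37389 in 4 h monocytes and 216885 to 235741 in resident macrophages. Fn1 made up most of the 4 h sum, at 25910 to 27323, and was 30436 to 34356 in resident macrophages. Monocyte genes (4 of 4 in both) summed to 95759 to 96365 in 4 h and 5746 to 6793 in resident cells. The part of these lists in the calls was not tested. At 72 h, Slc2a1 was the 1 gene called against resident macrophages, higher, with 0.731% of all tested genes called, 0.707% higher and 0.0247% lower; Pgk1 was 1.48-fold higher (0.56, adjusted p = 0.0172), under the fold threshold. The median was 0.14 over the 10 genes and -0.04 over all genes. Resident markers (10 of 10 in both) summed to 154768 to 196567 in 72 h and 216885 to 235741 in resident macrophages. Monocyte genes (4 of 4 in both) summed to 10122 to 19089 in 72 h and 5746 to 6793 in resident macrophages. The part of these lists in the Slc2a1 call was not tested. The 8 comparisons share groups, so their values are not independent of each other.

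**Figure D2:**
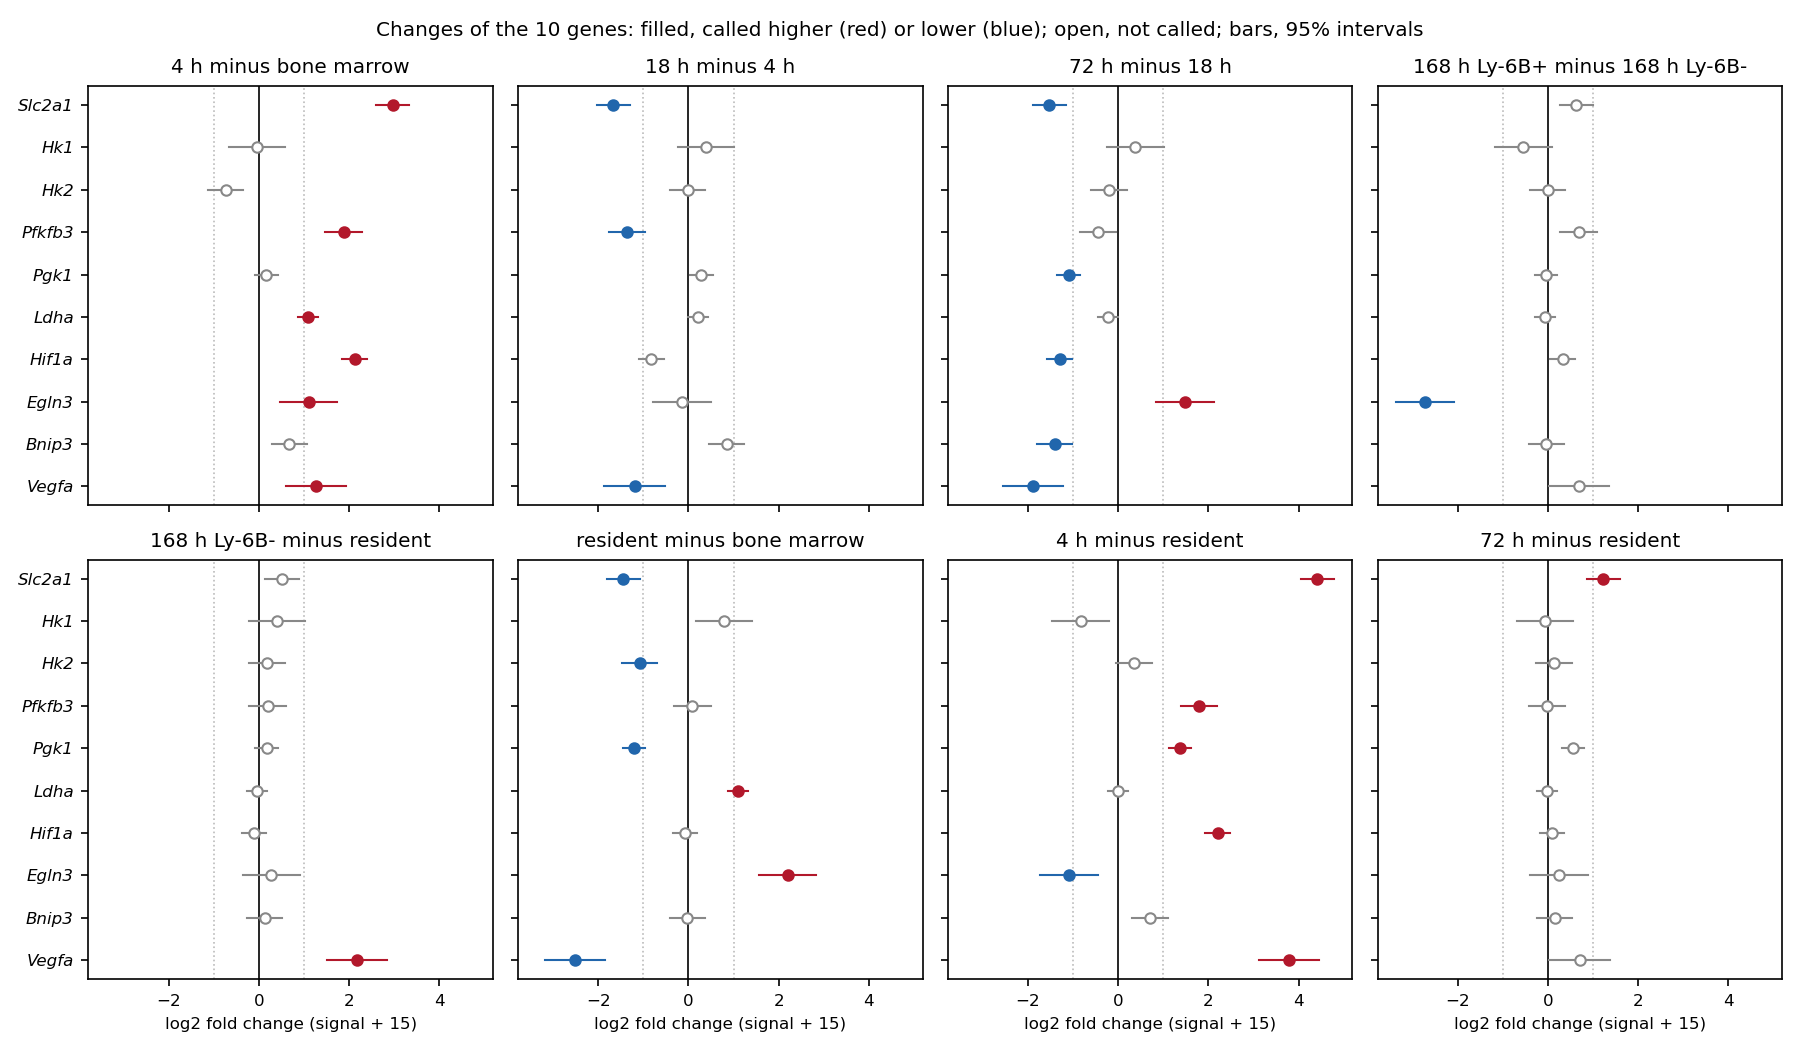
Log2 fold change of signal + 15 for the 10 genes in 8 comparisons, with 95% intervals; filled points passed the test, red higher and blue lower in the group named first, open points did not pass, and dotted lines mark a log2 change of 1 in each direction. Of the 10 genes, 6 pass in 4 h minus bone marrow, all higher, and Egln3 alone in 168 h Ly-6B+ minus Ly-6B-.

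All 10 genes differed among the 7 groups in an F test at an adjusted p under 0.05, as did 69.8% of all tested genes. The ratio of the highest to the lowest group mean was 22.3 for Slc2a1, 7.10 for Egln3 and 4.94 for Hif1a, and lay between 2.13 and 3.66 for 6 others. No ratio is given for Vegfa, whose lowest group was below the table median on every array. The level profiles over the 7 group means were compared by Pearson's r, as a description over 7 points that share the same arrays. Slc2a1 and Hif1a were the most alike of the 45 pairs (0.960), and Hk2 and Ldha the least (-0.880). For Egln3 the values ran from -0.63 with Vegfa and -0.60 with Hk2 to 0.49 with Ldha and 0.63 with Hk1. Levels are not compared between genes, since probe sets differ in brightness.

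**Figure D3:**
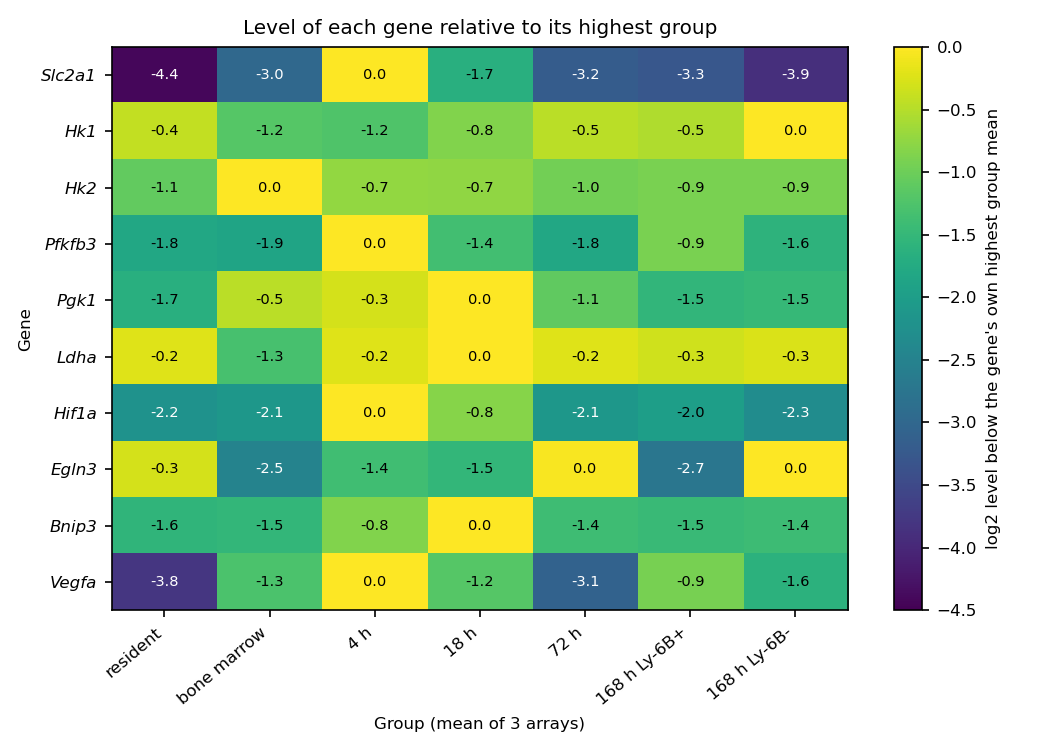
Group means of log2(signal + 15), given for each gene as the difference from its own highest group, so that 0 marks the peak and darker cells are lower. Slc2a1, Pfkfb3, Hif1a and Vegfa reach 0 at 4 h, Pgk1, Ldha and Bnip3 at 18 h, Hk2 in bone marrow monocytes, and Hk1 and Egln3 in 168 h Ly-6B- macrophages.

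Among 6350 tested genes whose group means spanned at least 1 on the log2 scale, those most like each gene were found by the same r over 7 groups. Nrp2 (0.993), Clcf1 (0.990) and Ssr2 (0.989) were closest to Slc2a1, and Elk3 (0.995), Epb41l2 (0.994) and Itgax (0.994), which encodes CD11c, to Hif1a. The closest to Pgk1 was Pgam1 (0.992), the enzyme that follows Pgk1 in glycolysis, followed by Cdk6 and S100a10. Vegfa had Tnfaip3 (0.976), Maff (0.966) and Pde6h (0.963), and Egln3 had Gfpt2 (0.965), Rpl39l (0.942) and Prickle2 (0.941). For Ldha they were Tmem106a, Dab2 and Secisbp2l, for Pfkfb3 Trmt61b, Slc9a8 and Parp14, and for Bnip3 Tbcb, Slc66a1 and Gtf3c6. Hk1 had Snx16, Zdhhc1 and Ctif, and Hk2 had Hspa14, Ndufaf7 and Tuba4a.

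A further 83 genes of the same pathways were listed, of which 66 were tested, 8 had too low a signal and 9 were not analysed here. In 4 h over bone marrow monocytes 9 were called higher and 6 lower, 22.7% against 22.0% of all genes. Of 10 glycolytic enzymes 2 were higher and 1 lower: Pfkp, a phosphofructokinase, was at 7928 ± 1014 in 4 h and 3038 ± 326 in bone marrow monocytes (SD, n = 3 arrays each; log2 change 1.38, adjusted p = 1.87e-09), and Pfkm, another, changed by -1.12. Of 8 sugar and lactate transport genes 2 were higher and 2 lower, led by the lactate exporter Slc16a3 (2.02, adjusted p = 0.000226) and the glucose transporter Slc2a3 (-1.77, adjusted p = 0.00448). Slc2a3 was at 315 ± 17.5 in 4 h and 1436 ± 1297 in bone marrow monocytes, with the third bone marrow array at 2928, and without that array the change was -1.08 (adjusted p = 0.0457). HIF target genes had 4 higher and 1 lower of 19, with Ankrd37 at 3.19 (1094 ± 21.4 in 4 h and 108 ± 20.2 in bone marrow monocytes, adjusted p = 4.23e-10) and the transferrin receptor Tfrc at 790.4 ± 207 in 4 h and 1639 ± 668 in bone marrow monocytes (adjusted p = 0.00507). Of 14 regulators 1 was lower, Fbp1 (-1.13, adjusted p = 0.0490), which was at 61.6 ± 8.42 in 4 h monocytes, below the table median, and 207 ± 205 in bone marrow monocytes. On the third bone marrow array it was at 442, and without it the Fbp1 change was -0.40 (adjusted p = 0.422). The Fbp1 call was also lost without the first bone marrow array (adjusted p = 0.0513) or any 1 of the 4 h arrays (adjusted p from 0.0773 to 0.124). Of 9 HIF subunits and oxygen sensors 1 was higher, Epas1 (1.35), and of 6 pentose phosphate enzymes 1 was lower, Rpia (-1.79). The calls of Tfrc and Pfkm were also lost when 1 array was left out, Tfrc without the third bone marrow array (-0.69) or the third 4 h array (-0.77) and Pfkm without the first 4 h array (-0.98).

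Through the later steps the pathway genes again moved in both directions. In 18 h over 4 h cells 9 were called higher and 4 lower (19.7%, against 15.5% of all genes). They included the aldolase Aldoc (1.70) and the cytokine Mif (2.38) among those higher, and Pfkp (-1.26), the lactate transporter Slc16a1 (-2.20) and Mxi1 (-1.40) among those lower. Mlxipl, the glucose-sensing factor ChREBP, was 2372 ± 1028 in 18 h and 85.3 ± 92.8 in 4 h cells (SD, n = 3 arrays each; 5.00, adjusted p = 6.25e-08). The transporter Slc16a7 was at 1233 ± 84.9 in 18 h and 425 ± 31.1 in 4 h cells (adjusted p = 5.62e-08). In 72 h over 18 h cells 7 were higher and 8 lower (22.7%, against 12.5%), with Ldhb (1.04), Slc2a8 (1.21), Fbp2 (1.51) and P4ha2 (2.09) higher and Aldoc (-1.41), Slc16a3 (-1.24), Pfkfb4 (-1.85) and Ak4 (-2.42) lower. Fbp2 was at 73.0 ± 15.8 in 72 h and 15.8 ± 4.40 in 18 h cells, both means below the table median, and Ak4 at 30.2 ± 26.7 in 72 h and 196 ± 34.4 in 18 h cells, so the size of these log2 changes depends on the 15 added to the signal, as does that of Mlxipl. The Slc16a3 call was lost without the first 18 h array (-0.85, adjusted p = 0.139) or the third 72 h array (-1.17, adjusted p = 0.0630), and that of Ldhb without the third 72 h array (0.90) or the third 18 h array (0.998).

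Epas1, the gene of HIF-2 alpha, had a profile unlike that of Hif1a. It was at 5325 ± 880 in 72 h and 521 ± 91.5 in 18 h cells (log2 change 3.32, adjusted p = 4.73e-09), and at 802 ± 220 in 168 h Ly-6B+ and 5773 ± 608 in Ly-6B- macrophages (-2.86, adjusted p = 1.71e-07). In 18 h over 4 h cells it was called higher, at 521 ± 91.5 in 18 h and 145 ± 24.9 in 4 h cells (1.74, adjusted p = 1.50e-05). It was also at 145 ± 24.9 in 4 h monocytes and 4607 ± 907 in resident macrophages (-4.84, adjusted p = 2.46e-12; SD, n = 3 arrays each throughout). Like Egln3, it was high in the resident, 72 h and 168 h Ly-6B- groups.

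In the other comparisons the same lists gave these counts. Between 168 h Ly-6B+ and Ly-6B- macrophages 0 were called higher and 4 lower (6.06%, against 3.94%), Epas1, Bsg (-1.05) and P4ha2 (-1.17) among the lower. At an unadjusted limma p under 0.05, 9 were higher and 14 lower, where 2514 of all 12168 genes had such a p. Bsg fell short of the fold threshold without the first Ly-6B+ (-0.90), the second Ly-6B- (-0.94) or the third Ly-6B- array (-0.93), and P4ha2 lost its call without any 1 of the Ly-6B+ arrays or either of the first 2 Ly-6B- arrays (adjusted p from 0.0537 to 0.117). Between 168 h Ly-6B- and resident macrophages 0 of 66 were called by limma. At an unadjusted p under 0.05, 3 were higher and 1 lower, where 433 of all 12168 genes had such a p. Resident macrophages over bone marrow monocytes had 14 higher and 8 lower (33.3%, against 23.1%), with Mlxipl (6.97), Epas1 (6.19), P4ha2 (5.13), Pfkl (2.58) and Bsg (1.73) higher and Ndrg1 (-4.80), Slc2a3 (-2.44), Pfkfb4 (-1.95), Vhl (-1.38) and Pgam1 (-1.22) lower. In bone marrow monocytes Mlxipl (38.2 ± 16.2), Epas1 (51.2 ± 26.1) and P4ha2 (mean 12.3) were below the table median on every array, and the size of their log2 changes depends on the 15 added. Slc2a3 was -1.75 (adjusted p = 0.00224) without the third bone marrow array. In 4 h monocytes over resident macrophages 13 were higher and 15 lower (42.4%, against 30.9%), among them Ndrg1 (4.12), Slc16a1 (2.64), Pfkp (2.10), Pfkfb4 (1.97) and Siah2 (1.26) higher and Mlxipl (-6.51), P4ha2 (-4.52), Slc2a8 (-2.38), Pfkm (-1.77) and Rpia (-1.69) lower. P4ha2 was below the table median on all 4 h arrays (27.2 ± 18.4), Mlxipl was at 85.3 ± 92.8 there, and the Siah2 call was lost without the first resident array (0.99). In 72 h over resident macrophages 1 was higher, Ankrd37 (1.35, adjusted p = 0.00209).

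**Figure D4:**
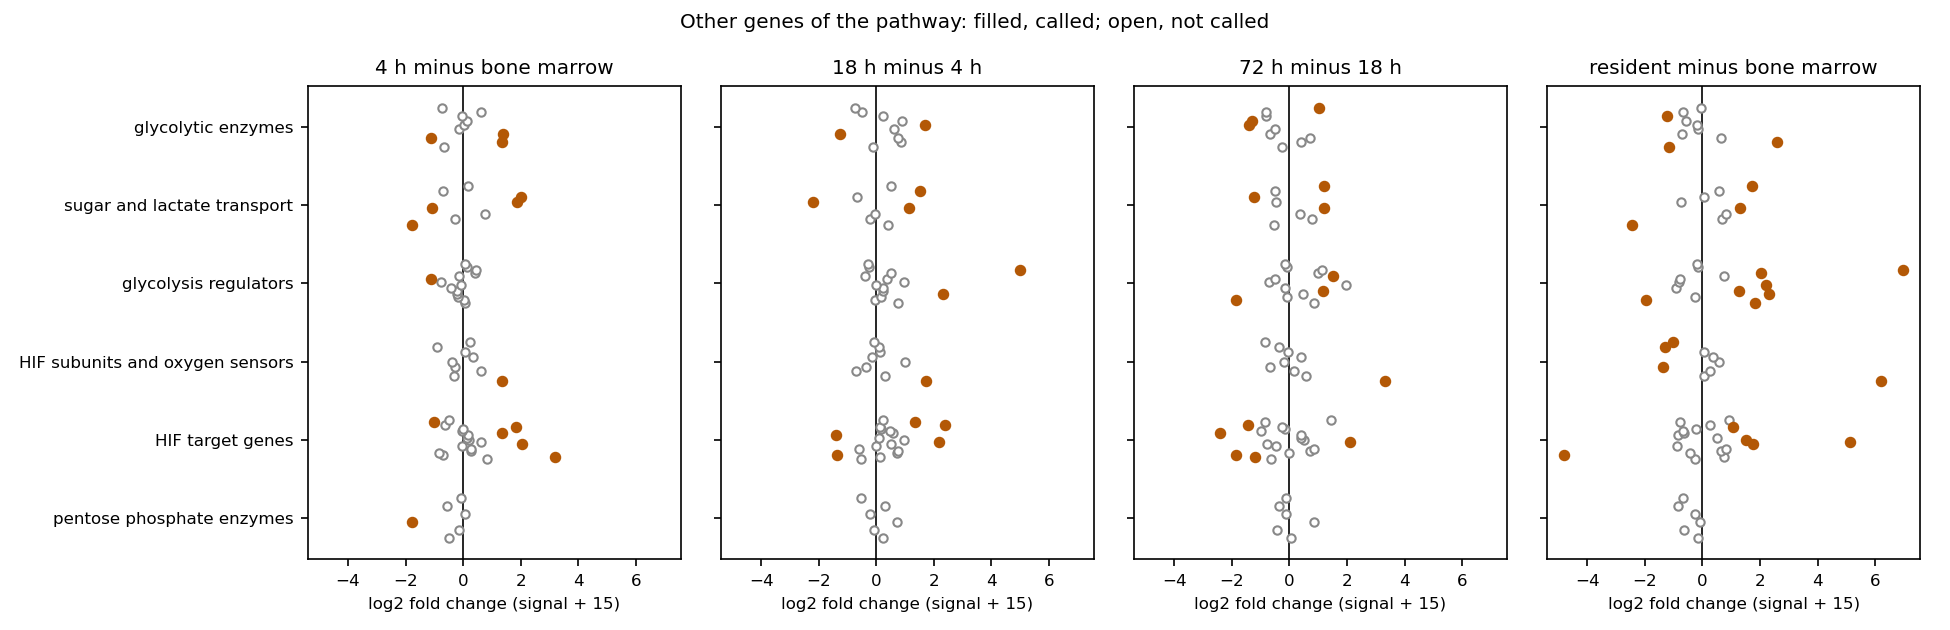
Log2 fold change of signal + 15 for the 66 other pathway genes tested, in 6 lists and 4 comparisons; each point is 1 gene, filled where it passed the test and open where it did not. Called genes lie on both sides of 0 in all 4 panels for glycolytic enzymes, sugar and lactate transport and HIF target genes. In the other lists they do so in some panels or none. Epas1 is the point furthest right among HIF subunits in the 72 h and resident panels.

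Some measures of array quality differed between groups. Median signals ran from 67.3 to 93.0, with 67.3 to 75.1 in 4 h and 84.8 to 87.1 in resident cells. The mean correlation within a group ran from 0.970 to 0.979. The 3'/5' ratio of the Gapdh control ran from 1.64 to 2.89, lowest in the 18 h group. It was 2.47 to 2.70 in 4 h and 1.64 to 2.12 in 18 h cells. The ratio of the Actb control went the other way, at 1.25 to 1.44 in 4 h and 1.49 to 1.67 in 18 h cells. The part of these differences in the calls was not tested. Of 6 macrophage identity genes, 6 were above the table median on every array in 6 groups and 5 in bone marrow monocytes. Single arrays stood apart in other cells' genes: the second 72 h array had a summed signal of 7 mast cell genes of 6647, led by Cpa3 and Cma1 (456 and 414 on the other 2), one of 6 B cell genes of 8180 (673 and 759) and one of 9 proliferation genes of 47275 (20131 and 11369). The second 4 h array had Alox15, a resident macrophage gene, at 2199.8, named after its values were seen (131 and 156 on the other 2). With those 2 and the third bone marrow array left out, the number of the 10 genes called was the same in all 8 comparisons.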

How the data were processed

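RNA of 21 sorted samples was measured on Affymetrix arrays. The authors deposited a linear MAS5 signal intensity for each probe set, and the submitters' processing notes name Affymetrix Expression Console 1.2; the 2% trimmed mean was 500.0 on every array. The table held 45101 probe sets: 34945 had 1 gene symbol in GEO's platform annotation, 932 had several, 9160 were not listed, and 64 were controls. Of these, those with 1 symbol were used.

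The brightest probe set on average stood for a gene, as log2(signal + 15), 15 being the rounded 20th percentile of the table, and tested if above the table median (80.6) on at least 3 arrays. Groups were compared with limma 3.58.1 in R 4.3.3 (lmFit and eBayes with a trend, all 21 arrays, 14 residual degrees of freedom, 2-sided, Benjamini-Hochberg adjustment over 12168 genes). Calls needed an adjusted p under 0.05 and an absolute log2 change of at least 1. The procedure was tested on simulated data.

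Every one of the 10 genes is named. Of the other pathway genes, the called gene with the largest increase and decrease per list and comparison is named, and for likeness the 3 genes with the highest r; of the quality lists, the 2 genes with the highest mean signal in each list that a result touches. Members, lists and rules were chosen with earlier results of these data known. Labels call the samples biological replicates. The p-values set differences of group means against the spread between arrays within groups, estimated over all groups. With 3 arrays a group, the precision is limited. Replicate numbers were checked by the correlation of deviations from group means. It exceeded 0.1 for all 3 numbers only between the 168 h groups (0.296, 0.276 and 0.178). There the numbers were read as pairs, but the tests above did not use the pairing, and a replicate block was fitted as an alternative. Between 72 h and 18 h cells the correlations were 0.114, 0.0887 and 0.195. All 6 arrays correlated best with their own number there and between the 168 h groups. The same held in Ly-6B- over resident, resident over bone marrow and 4 h over resident cells. Alternatives covered the pseudocount, scaling, filter, probe set summary, trend, replicate block, fold threshold, arrays fitted and arrays left out.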

Additional observations from a re-analysis of the deposited data

How the results depend on the processing

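Of 80 gene and comparison pairs, 30 were called, 20 of these stayed called under all 18 or 19 alternatives tried, 10 were lost under at least 1, and no call changed sign among 1512 values. The lost calls not given above were Egln3 in 4 h over bone marrow monocytes with a pseudocount 4 times larger (0.93), the mean of probe sets (0.69) or without the first bone marrow array (0.99); Egln3 in 4 h over resident cells with quantile normalization (-0.92), a common median (-0.86) or without the third 4 h array (-0.99); and Vegfa in 72 h over 18 h cells with the mean of probe sets (-0.99). With a common median for all arrays, the median log2 change of all genes in 4 h over resident cells was 0.00 in place of -0.22, in resident over bone marrow cells -0.09 in place of 0.05 and in 72 h over 18 h cells -0.09 in place of 0.03, and higher calls were 42.3% in place of 29.9% of all calls in 4 h over resident cells.

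With no minimum fold, calls over all genes were 5670 in 4 h over bone marrow, 4871 in 18 h over 4 h, 3703 in 72 h over 18 h, 993 in Ly-6B+ over Ly-6B-, 5776 in resident over bone marrow, 6897 in 4 h over resident and 140 in 72 h over resident cells; of the 10 genes 5 were then called in 18 h over 4 h, 3 in Ly-6B+ over Ly-6B- and 2 in 72 h over resident cells, and of the other pathway genes 30 in 4 h over bone marrow, 31 in 18 h over 4 h, 35 in 72 h over 18 h, 9 in Ly-6B+ over Ly-6B-, 41 in resident over bone marrow and 3 in 72 h over resident cells. Other pathway genes called in 4 h over bone marrow cells were 9 with the larger pseudocount, and in 72 h over resident cells 2 with a common median or without the trend and 0 with the 6 arrays alone. In 168 h Ly-6B- over resident cells, 0 of the 10 genes were called with the mean of probe sets or with 6 arrays alone. The count over all genes was also 0 with 6 arrays alone, where 72 h over resident cells gave 50. A filter at the 75th percentile (443) left out Vegfa, which was above it on fewer than 3 arrays. The Vegfa call was therefore not tried under that filter. Leaving out number 3 of every group, chosen after seeing the data, gave 3 calls over all genes in Ly-6B- over resident cells, 1 other pathway gene in Ly-6B+ over Ly-6B- cells, and lost Pgk1 in 72 h over 18 h (-0.97) and Egln3 in 4 h over resident cells (-0.93). The causes were not tested.

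Leaving out 1 array at a time, the number of the 10 genes called ranged from 5 to 6 in 4 h over bone marrow, 3 to 4 in 18 h over 4 h, 5 to 6 in 72 h over 18 h, 1 to 1 in Ly-6B+ over Ly-6B-, 0 to 1 in Ly-6B- over resident, 5 to 7 in resident over bone marrow, 5 to 7 in 4 h over resident and 1 to 1 in 72 h over resident cells. Other pathway genes called in Ly-6B+ over Ly-6B- cells ranged from 2 to 4, the lower value without the third Ly-6B+ or the second Ly-6B- array. Calls over all genes ranged from 2 to 9 in Ly-6B- over resident cells (9 without the first and 2 without the second Ly-6B- array, 3 without the second resident array and 3 without the third one) and from 61 to 193 in 72 h over resident cells, the higher without the third 72 h array. With the replicate block, 495 genes were called in Ly-6B+ over Ly-6B- macrophages in place of 480, and no call of the 10 genes changed. In the other comparisons the numbers were not read as pairs, though some shared structure by number was seen. The block gave 6, 3, 6, 1, 6, 6 and 1 calls of the 10 genes in those comparisons, the counts without it.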
